A study of Mus musculus with 16 samples.

Results

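*Trp63*, *Grhl1*, *Grhl2*, *Grhl3*, *Tfap2a*, *Ovol1*, *Klf5* and *Sp6* encode transcription factors of embryonic epithelia and were followed here as 1 group in developing molars. They were taken as the probe sets whose platform annotation gives 1 gene symbol and whose symbol is one of these 8 names. Each name had exactly 1 such probe set, so the group held 8 of the 19938 genes with a probe set of their own, and all 8 passed the minimum signal of 5 in at least 1 sample, which left 18834 probe sets of 17215 genes to test.

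The study asked how loss of RSK2, a kinase downstream of ERK mutated in Coffin-Lowry syndrome, alters tooth development. Mandibular first molar germs were dissected at E14.5 and their RNA was hybridised to Affymetrix Mouse Gene arrays, 1 array for each pool. There were 8 *Rsk2-/Y* pools and 8 WT pools, each pool holding 4 tooth germs and, by the study's methods, coming from 2 embryos. The labels split both genotypes into names that begin with ABH or AZN, with 4 pools of each genotype in each, and what ABH and AZN stand for is not given in the sources used here.

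All 16 pools came from embryos on a C57Bl6 background. The *Rsk2-/Y* embryos were males carrying an inactivated *Rsk2* gene on their X chromosome, and the WT embryos were male littermates. Of the alleles, the methods say that the *Rsk2* knockout bred into the triple mutants lacks exon 2, without saying so again for these embryos. Which pools shared a litter is not stated. Because the germs were dissected by hand and not separated into layers, each pool mixed epithelium and mesenchyme. Signals are log2 values that had been background corrected, normalised and summarised by probe set before deposit. A difference of 1 on this scale is a doubling, and all differences below are *Rsk2-/Y* minus WT unless another pair is named. Signals of different probe sets depend on the probes and were not ranked against each other.

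At this stage the molar is a cap of epithelium folding around condensed mesenchyme, with the enamel knot as its signalling centre. The epithelial layer keeps its identity through a small set of DNA-binding proteins that act together, with p63 at the base of stratified epithelia, Grainyhead-like and AP-2 factors driving junction and barrier genes, and OVOL proteins holding back mesenchymal programmes. Loss of p63 in mice arrests tooth development early, and loss of *Sp6*, also called epiprofin, gives extra teeth and defective enamel.

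Both layers were represented in the arrays. Of 46 keratin, adhesion and junction genes listed as epithelial markers, 44 could be tested, and of 18 dental mesenchyme genes, 17 could be tested. The mean log2 signal of the epithelial list lay between 8.65 and 8.998 in *Rsk2-/Y* pools and between 8.80 and 9.30 in WT pools, and that of the mesenchyme list between 9.80 and 10.6 in *Rsk2-/Y* pools and between 9.99 and 10.5 in WT pools. The pool with the lowest epithelial mean was AZN_MolairesMutant3 among *Rsk2-/Y* and AZN_MolairesWT2 among WT. The same pools had the highest mean of 22 skeletal muscle genes in their genotype, at 9.80 in AZN_MolairesMutant3 and 8.87 in AZN_MolairesWT2, while the medians were 8.61 in *Rsk2-/Y* pools and 7.95 in WT pools. High muscle and low epithelial means did not always go together. ABH_14A had the next highest muscle mean among *Rsk2-/Y* pools, 9.40. Its epithelial mean of 8.96 was above the *Rsk2-/Y* median of 8.94. *Rps6ka3*, which encodes RSK2, averaged 10.1 ± 0.28 in *Rsk2-/Y* pools and 9.99 ± 0.23 in WT pools (SD, n = 8 each), a difference of 0.10 (limma adjusted p = 0.9997). Where its probes lie relative to the inactivated part of the gene is not given in the sources used here, so this signal is no check of the genotype labels.

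None of the 8 factors passed the threshold of the genotype comparison, an adjusted p under 0.1 in limma together with a fold change of 1.2, and neither did any other probe set (0% in either direction). All 8 factors had a negative difference, with a median of -0.22 and a range from -0.37 for *Grhl3* to -0.18 for *Trp63*. Over all probe sets tested 59.3% were below 0 and the median was -0.015. At an unadjusted p under 0.05 in limma 6 of the 8 were lower in *Rsk2-/Y* pools, against 2.87% of all probe sets (540 lower, and 222 or 1.18% higher). With 1 pool left out at a time, that count among the 8 ran from 5 to 7. An equal-variance test of 2 groups, run as an alternative, likewise left none after Benjamini-Hochberg adjustment, with 578 lower (3.07%) and 211 higher (1.12%) at an unadjusted p under 0.05. In whole germs fewer epithelial cells and less RNA per epithelial cell cannot be told apart, and this applies to every value that follows.

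**Figure D1:**
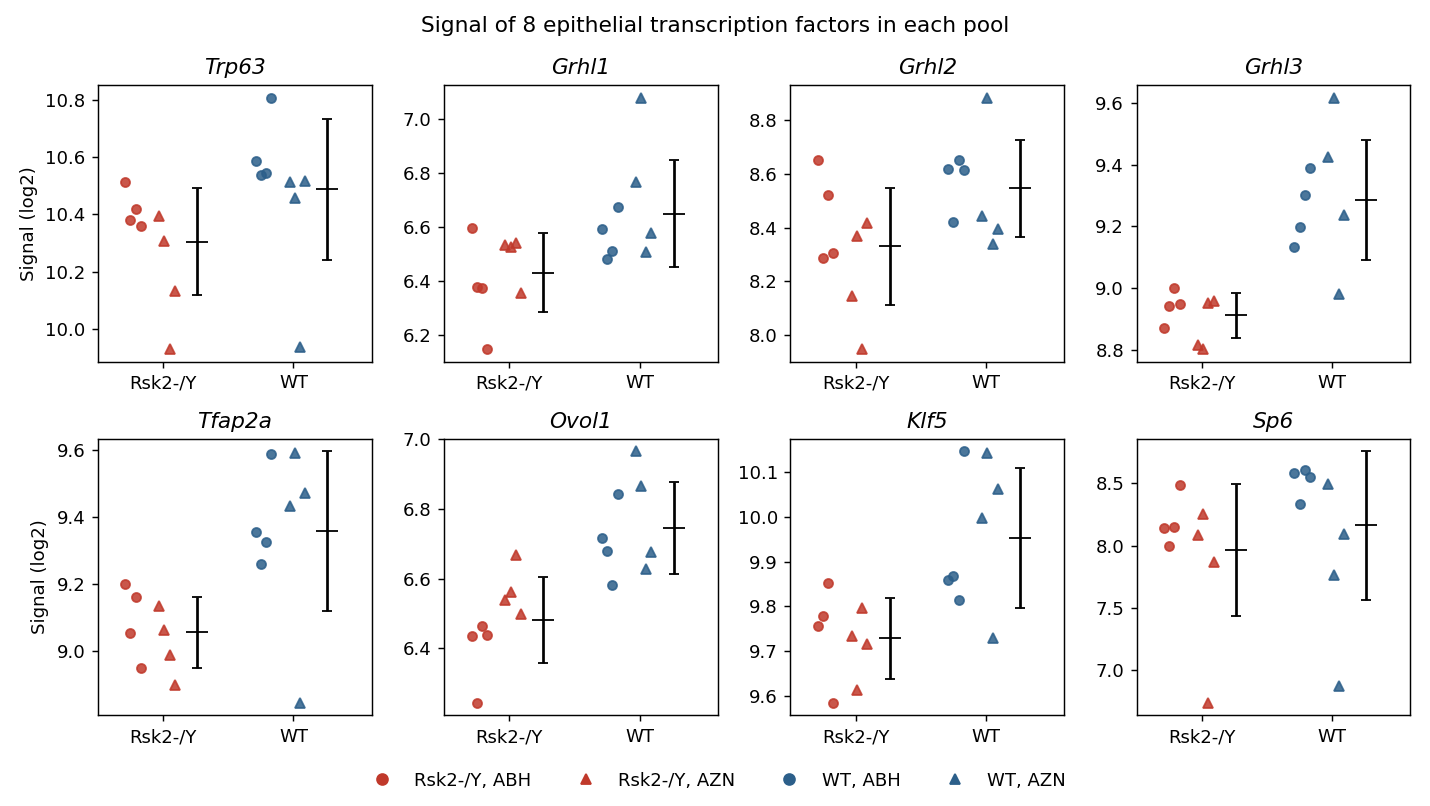
Log2 signal (vertical axis, scaled for each gene) of the 8 factors in each *Rsk2-/Y* pool (left, red) and WT pool (right, blue). Circles are ABH pools, triangles are AZN pools, and the bar with whiskers is the mean ± SD of the 8 pools. For *Grhl3* the *Rsk2-/Y* pools lie between 8.80 and 9.002 and the WT pools between 8.98 and 9.62.

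The Grainyhead-like factors GRHL1, GRHL2 and GRHL3 bind a common sequence in the regulatory regions of junction, barrier and membrane-sealing genes. *Grhl3*, which in mice is needed for epidermal barrier formation, wound closure and closing of the neural tube, had the largest difference of the group. In ABH it measured 8.87, 8.94, 9.002 and 8.95 in the *Rsk2-/Y* pools, against 9.13, 9.20, 9.30 and 9.39 in the WT pools. In AZN it measured 8.82, 8.80, 8.95 and 8.96 in the *Rsk2-/Y* pools, against 9.62, 8.98, 9.24 and 9.43 in the WT pools. The genotypes did not overlap within either set, and across sets 7 of the 8 *Rsk2-/Y* pools were below the lowest WT pool, which was AZN_MolairesWT2. The means were 8.91 ± 0.073 in *Rsk2-/Y* pools and 9.29 ± 0.20 in WT pools (SD, n = 8 each). The SD among WT pools was the larger one. The difference was -0.37 (SE 0.072, 95% confidence interval -0.53 to -0.22). Its limma p of 6.59e-05 ranked 2 among all 18834 probe sets and came to 0.403 after adjustment. An exact permutation test of the pools, two-sided, gave p = 0.000311, and p = 0.000408 when pools were exchanged only within ABH and within AZN, the smallest value that this restricted test can give. After adjustment over all probe sets the permutation p values were 0.689 and 0.405.

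*Tfap2a* encodes AP-2α, a factor of surface ectoderm and neural crest that is needed in mice for the face and for epidermal gene expression. In ABH it measured 9.20, 9.05, 9.16 and 8.95 in the *Rsk2-/Y* pools, against 9.35, 9.26, 9.32 and 9.59 in the WT pools. In AZN it measured 9.13, 9.06, 8.99 and 8.90 in the *Rsk2-/Y* pools, against 9.59, 8.85, 9.47 and 9.43 in the WT pools. The genotypes were separate in ABH, and in AZN the only overlap came from AZN_MolairesWT2, whose 8.85 was the lowest of all 16 pools. The difference was -0.30 (SE 0.087, limma p = 0.00280, adjusted p = 0.824; exact permutation p = 0.00746, two-sided), from means of 9.06 ± 0.11 in *Rsk2-/Y* pools and 9.36 ± 0.24 in WT pools (SD, n = 8 each).

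The promoter sequences of *Grhl3* and *Tfap2a* are shown because these factors had the largest differences and, as described below, were the ones called when AZN_MolairesWT2 was left out. RefSeq promoter windows on GRCm38.p6 were on hand for 3 members, *Grhl1* with 2 start sites, *Grhl3* with 1 and *Tfap2a* with 2. The 250 bases before the start site were searched on both strands for the Grainyhead-like motifs AACCGGTT and AACCTGTT, the AP-2 motif GCCNNNGGC, the Sp and KLF motifs GGGCGG and GGGTGTG, and TATAAA. Below are the window of *Grhl3* on chr4:135573633-135573882, minus strand, and that of the upstream start site of *Tfap2a* on chr13:40734921-40735170, minus strand, read 5′ to 3′ with motif matches in capitals.
Grhl3: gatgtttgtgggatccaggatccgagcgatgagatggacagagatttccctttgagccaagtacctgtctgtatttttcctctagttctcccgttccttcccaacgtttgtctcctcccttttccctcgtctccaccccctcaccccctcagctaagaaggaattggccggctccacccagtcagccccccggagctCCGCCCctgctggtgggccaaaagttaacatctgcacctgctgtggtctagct
Tfap2a: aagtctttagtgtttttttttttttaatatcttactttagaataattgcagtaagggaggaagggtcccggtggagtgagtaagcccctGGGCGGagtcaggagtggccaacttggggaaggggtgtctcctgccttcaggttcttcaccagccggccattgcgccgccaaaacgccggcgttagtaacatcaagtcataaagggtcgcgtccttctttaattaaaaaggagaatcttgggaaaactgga
Each holds a single match, to GGGCGG, at bases -53 to -48 from the start site in *Grhl3*, where it lies on the opposite strand and reads CCGCCC, and at -161 to -156 in *Tfap2a*. That motif occurs in 32.7% of the 32851 windows of this length, so a match is common and is given as a description only. Neither window held a Grainyhead-like motif, of which AACCGGTT occurs in 0.116% and AACCTGTT in 0.837% of windows, an AP-2 motif (13.7%), GGGTGTG (6.93%) or TATAAA (12.4%). In *Grhl1* the upstream window held 2 matches to GGGCGG and 1 to the AP-2 motif, at -82 to -74. The downstream window of *Tfap2a* held 1 match, to GGGCGG on the opposite strand at -13 to -8, and that of *Grhl1* held none. No match says only that these letters are not in this stretch.

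*Ovol1* encodes a zinc-finger repressor that acts in epithelial cells leaving the cell cycle. In ABH it measured 6.43, 6.24, 6.46 and 6.44 in the *Rsk2-/Y* pools, against 6.72, 6.68, 6.58 and 6.84 in the WT pools. In AZN it measured 6.54, 6.56, 6.67 and 6.50 in the *Rsk2-/Y* pools, against 6.86, 6.63, 6.68 and 6.96 in the WT pools. Again 7 of 8 *Rsk2-/Y* pools lay below the lowest WT pool, the exception being AZN_MolairesMutant3, and the genotypes did not overlap in ABH. The difference of -0.26 (SE 0.065) had a limma p of 7.20e-04, ranking 20, and an adjusted p of 0.638. The exact permutation test gave p = 0.000777, two-sided. The means were 6.48 ± 0.12 in *Rsk2-/Y* pools and 6.74 ± 0.13 in WT pools (SD, n = 8 each).

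*Klf5*, a Krüppel-like activator of proliferating epithelial cells, had its lowest, median and highest signals at 9.58, 9.74 and 9.85 in *Rsk2-/Y* pools, against 9.73, 9.93 and 10.1 in WT pools. All 8 *Rsk2-/Y* pools were below the WT mean, and the genotypes overlapped in both sets. The difference was -0.22 (SE 0.065, limma p = 0.00286, adjusted p = 0.824; exact permutation p = 0.00357, two-sided).

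The other Grainyhead-like genes had differences close to that of *Klf5* with wider errors. *Grhl1*, which regulates desmosomal genes in mouse skin, had its lowest, median and highest signals at 6.15, 6.45 and 6.60 in *Rsk2-/Y* pools, against 6.48, 6.58 and 7.08 in WT pools. Its difference was -0.22 (SE 0.083, limma p = 0.0177, adjusted p = 0.9997; exact permutation p = 0.0149, two-sided). *Grhl2*, which maintains E-cadherin and claudin expression, had 7.95, 8.34 and 8.65 in *Rsk2-/Y* pools, against 8.34, 8.53 and 8.89 in WT pools. Its difference was -0.22 as well (SE 0.094, limma p = 0.0338, adjusted p = 0.9997; exact permutation p = 0.0480, two-sided). For *Grhl1* all 8 *Rsk2-/Y* pools were below the WT mean and for *Grhl2* 7 were, and the ranges of both overlapped in ABH and in AZN.

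*Trp63*, the p63 gene, had its lowest, median and highest signals at 9.93, 10.4 and 10.5 in *Rsk2-/Y* pools, against 9.94, 10.5 and 10.8 in WT pools. The genotypes were separate in ABH but shared nearly the same minimum in AZN, where AZN_MolairesWT2 was the lowest WT pool. The difference was -0.18 (SE 0.10, limma p = 0.0888, adjusted p = 0.9997; exact permutation p = 0.122, two-sided). *Sp6*, a factor of the dental epithelium itself, varied most. In ABH it measured 8.14, 7.997, 8.15 and 8.48 in the *Rsk2-/Y* pools, against 8.58, 8.33, 8.60 and 8.55 in the WT pools. In AZN it measured 8.08, 8.25, 6.74 and 7.87 in the *Rsk2-/Y* pools, against 7.77, 6.87, 8.10 and 8.50 in the WT pools. The low values belong to AZN_MolairesMutant3 and AZN_MolairesWT2. The difference was -0.20 (SE 0.25, 95% confidence interval -0.72 to 0.33, limma p = 0.442, adjusted p = 0.9997; exact permutation p = 0.487, two-sided), so these pools leave a difference in *Sp6* of either sign possible.

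In 5 of the 8 factors, *Grhl1*, *Grhl3*, *Tfap2a*, *Ovol1* and *Klf5*, every *Rsk2-/Y* pool was below the WT mean, which was so for 2.33% of all probe sets. Within ABH the genotypes did not overlap for 4 factors, *Trp63*, *Grhl3*, *Tfap2a* and *Ovol1* (5.78% of all probe sets with *Rsk2-/Y* lower). Within AZN this was so for *Grhl3* alone (0.871%).

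Fitted by itself, ABH gave differences from -0.13 for *Grhl2* to -0.32 for *Sp6*, and 5 of the 8 had an unadjusted p under 0.05 in limma (8.61% of all probe sets were lower at that p) while none was called (0.0159% called lower). AZN gave differences from -0.071 for *Sp6* to -0.43 for *Grhl3*, and 3 of the 8 had an unadjusted p under 0.05 (1.45%). *Grhl3* differed by -0.31 in ABH (SE 0.065, adjusted p = 0.162) and by -0.43 in AZN (SE 0.12, adjusted p = 0.9996). All 8 differences were below 0 in both sets, against 62.0% of all probe sets in ABH and 51.3% in AZN. The interaction of genotype and set did not pass for any of the 8 in limma, with adjusted p from 0.888 to 0.987. The widest estimate was that of *Sp6*, 0.25 with an SE of 0.43.

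With genotype as a term, AZN and ABH pools differed in 3 factors at an adjusted p under 0.1 in limma. *Sp6* averaged 7.77 in AZN and 8.35 in ABH (AZN minus ABH -0.58, adjusted p = 0.0391), and *Trp63* averaged 10.3 in AZN and 10.5 in ABH (-0.24, adjusted p = 0.0292). *Ovol1* averaged 6.68 in AZN and 6.55 in ABH (0.12, adjusted p = 0.0931). These differences were common on the arrays as a whole, 23.1% of probe sets being lower and 21.7% higher in AZN. For *Grhl3* the AZN and ABH means were both 9.10.

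Leaving out AZN_MolairesWT2 brought 2 factors past the threshold. *Grhl3* was then lower by 0.42 (log2 fold change -0.42, SE 0.065, limma adjusted p = 0.0603) and *Tfap2a* by 0.38 (-0.38, SE 0.062, adjusted p = 0.0862), n = 8 *Rsk2-/Y* and 7 WT pools. They were among 9 probe sets called lower, or 0.0478% of those tested, with 1 called higher. The others called lower included *Cldn6*, *Jup* and *Cd9*, which encode a claudin, the junction protein plakoglobin and a tetraspanin. At an unadjusted p under 0.05 there were 7 of 8 factors lower, against 4.84% of all probe sets. Removing the pool took away the WT pool with the lowest epithelial mean and the highest muscle mean, so it also moved the WT average of both tissues.

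With ABH and AZN as a block and all 16 pools, 7 of 8 factors were lower at an unadjusted p under 0.05 (4.87% of all probe sets) and none was called (0.00531% called lower). With the block and without AZN_MolairesWT2, *Grhl3* (-0.42, adjusted p = 0.0238), *Tfap2a* (-0.38, adjusted p = 0.0267) and *Ovol1* (-0.29, adjusted p = 0.0375) passed in limma, 3 of the 80 probe sets called lower (0.425%). *Klf5* had an adjusted p of 0.0854 there and missed the fold change of 1.2 at -0.26. Leaving out AZN_MolairesMutant3 as well, the *Rsk2-/Y* pool with the lowest epithelial mean, gave none of the 8 without the block (0.00531% called lower). With the block the same 3 factors passed, at -0.42, -0.37 and -0.31 (adjusted p = 0.0354, 0.0394 and 0.0394), of 50 probe sets called lower (0.265%).

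**Figure D2:**
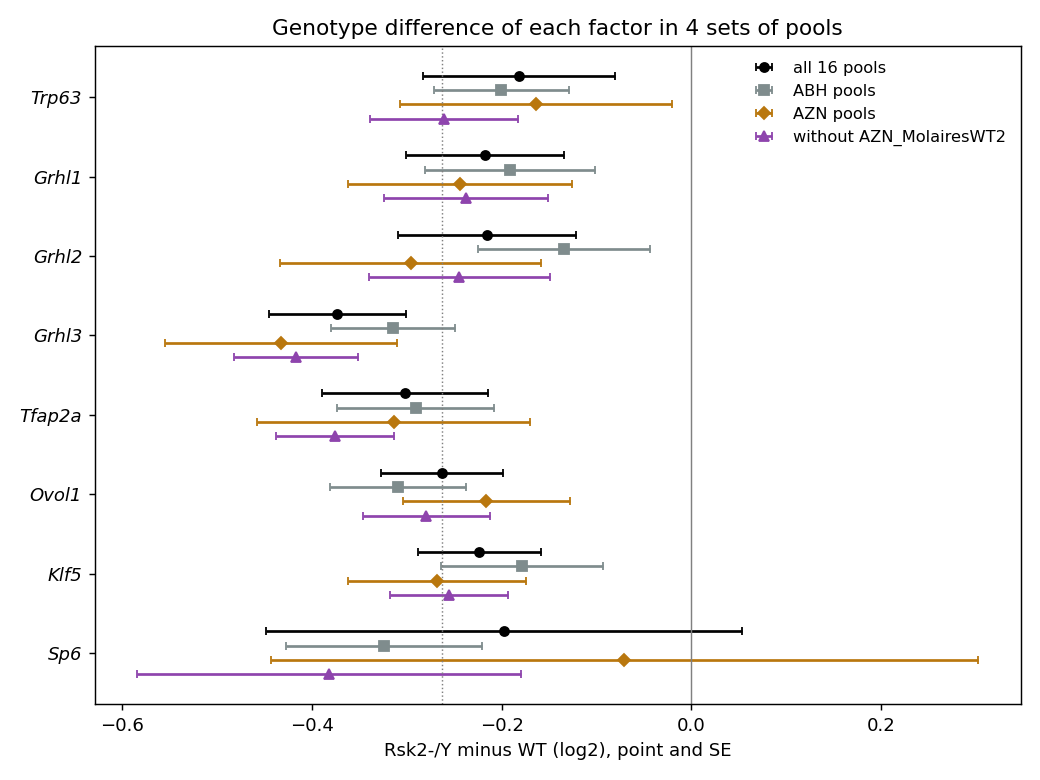
Genotype difference (horizontal axis, *Rsk2-/Y* minus WT, log2, with SE from limma) of each factor in all 16 pools, in ABH, in AZN and without AZN_MolairesWT2. The solid line is 0 and the dotted line a fold change of 1.2, and all points lie below 0, from -0.43 for *Grhl3* in AZN to -0.071 for *Sp6* in AZN.

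The 8 factors were positively correlated with each other across pools. With the mean of ABH and of AZN removed, the 28 pairs of members had correlations from 0.18 (*Grhl1* and *Sp6*) to 0.90 (*Tfap2a* and *Klf5*) over 16 pools, with a median of 0.67. *Sp6* had its highest correlation with *Trp63*, at 0.80, and correlated at 0.51 or less with each of the other 6. Among the 100 genes most correlated with each factor in this way, other members numbered from 0 for *Grhl2* to 4 for *Tfap2a*. All members also followed the mean of the epithelial keratin, adhesion and junction genes. Their correlations with it ran from 0.63 to 0.96 over the 8 ABH pools and from 0.62 to 0.87 over the 8 AZN pools, *Tfap2a* having the highest value in ABH and *Trp63* in AZN. These pools share their arrays, their mix of tissues and their genotypes, and the correlations are descriptions without a test. With genotype removed as well, over 16 pools, the correlation was highest for *Trp63*, 0.86, and lowest for *Ovol1*, 0.41.

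**Figure D3:**
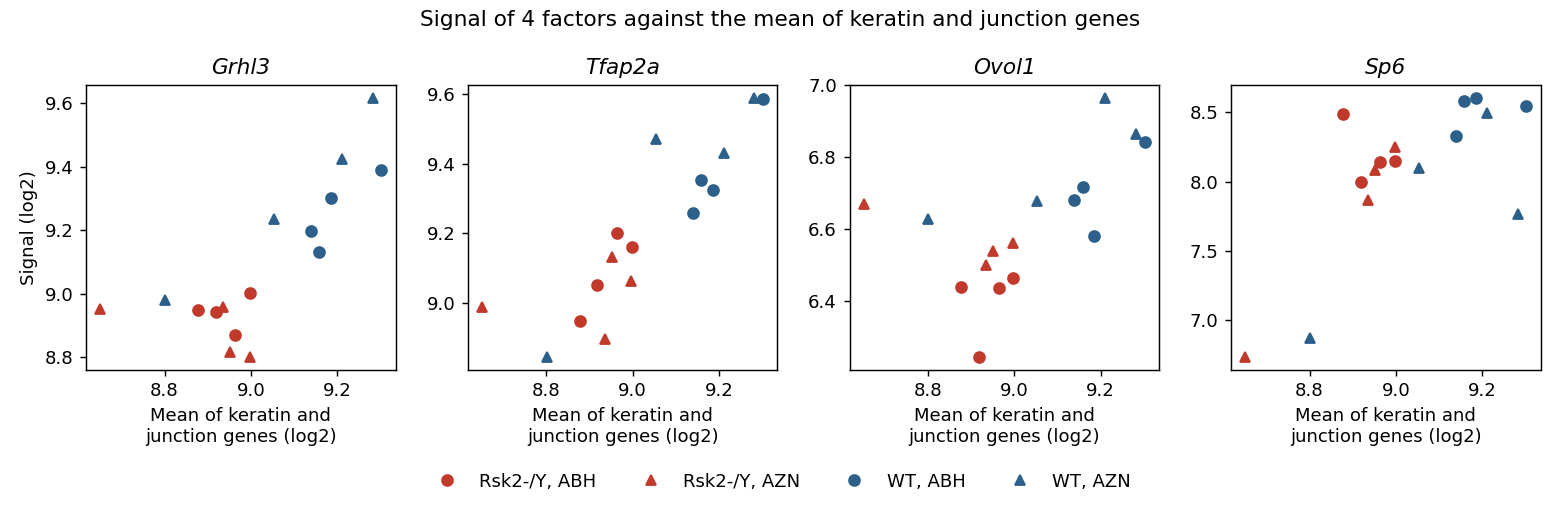
Log2 signal of *Grhl3*, *Tfap2a*, *Ovol1* and *Sp6* (vertical axis) against the mean log2 signal of 44 keratin, adhesion and junction genes (horizontal axis) in each pool, *Rsk2-/Y* in red and WT in blue, ABH as circles and AZN as triangles. The lowest epithelial means, 8.65 in AZN_MolairesMutant3 and 8.80 in AZN_MolairesWT2, go with the lowest *Sp6* signals, 6.74 and 6.87.

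Genes with the pattern most like each factor, by Pearson correlation over 16 pools after removal of the ABH and AZN means, are given next, without a test. *Grhl3* was closest to *Esrp2*, an epithelial splicing regulator (r = 0.94), then *Bcl11b* and *Ociad2*. *Tfap2a* was closest to *Dsg3*, a desmosomal cadherin (0.95), then *Myh14* and *Usp53*. *Klf5* was closest to *Tfap2a* (0.90), *Dsg3* and *Usp53*, and *Grhl1* to *Dsg3* (0.88), *Anxa8* and *Defb1*. *Grhl2* was closest to the Notch ligand gene *Jag2* (0.93), *Plekha7* and *Dsg2*. *Trp63* was closest to *Sh3rf2* (0.93), its relative *Trp73* and 2900026A02Rik, and *Ovol1* to *Kank1* (0.88), *Tmem45b* and *Ropn1l*. *Sp6* was closest to *Foxi3*, a forkhead factor of dental epithelium (0.96), *Has3* and *Tbx1*.

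Adding the mean of the epithelial genes as a covariate left 5 factors below 0 and put 3 above, with a median of -0.091 (52.3% of all probe sets were below 0), and called none. *Grhl3* was at -0.23 and *Ovol1* at -0.23, against -0.063 for *Tfap2a*, 0.021 for *Grhl2*, 0.13 for *Trp63* and 0.55 for *Sp6*. At an unadjusted p under 0.05, 2 factors were lower and 1 was higher (2.13% and 1.58% of all probe sets). The epithelial mean itself averaged 8.91 ± 0.11 in *Rsk2-/Y* pools and 9.14 ± 0.16 in WT pools (SD, n = 8 each), so the covariate removes part of any genotype difference that the whole epithelium shares. It also holds genes listed below as targets of the factors, such as *Cdh1* and *Krt5*. How far it measures the amount of epithelium was not tested.

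The remaining genes of these programmes were read as lists, none of which had a gene called with all 16 pools. Of 18 other epithelial transcription factors tested, 16 were below 0 (median -0.13) and 5 were lower at an unadjusted p under 0.05, with none higher. The splicing regulators *Esrp1* and *Esrp2*, which stood in the same list, were both lower at that p, and with them the count was 7 of 20, or 4 of 20 without AZN_MolairesWT or without AZN_MolairesWT1. *Esrp2* differed by -0.31 (8.23 ± 0.12 in *Rsk2-/Y* pools and 8.54 ± 0.16 in WT pools) and *Ehf*, an ETS factor of epithelia, by -0.27 (5.78 ± 0.12 in *Rsk2-/Y* pools and 6.06 ± 0.19 in WT pools, SD, n = 8 each). Of 44 keratin, adhesion and junction genes, all 44 were below 0 (median -0.21) and 28 were lower at that p, among them *Ap1m2*, a sorting adaptor of polarised epithelia (-0.31), and *Cd9* (-0.31). That count was 20 without ABH_25A or without AZN_MolairesMutant3, and 33 without AZN_MolairesWT2. Over all probe sets 2.87% were lower at that p with all 16 pools, and 4.84% without AZN_MolairesWT2. These shares also stand beside the lists that follow.

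Known targets of the factors were listed as well. Of 13 Grainyhead-like target genes tested, all were below 0 (median -0.27) and 10 were lower at an unadjusted p under 0.05, with *Arhgef19* at -0.26 and *Tmem54* at -0.27. Without AZN_MolairesWT1 that count was 7. Of 18 p63 target genes, 15 were below 0 (median -0.18) and 8 were lower at that p (6 without AZN_MolairesMutant3 and 11 without AZN_MolairesWT2). Among these, *Jag2* measured 8.63 to 8.92 in *Rsk2-/Y* pools and 8.96 to 9.33 in WT pools, so that no *Rsk2-/Y* pool reached the lowest WT pool, which held for 0.0159% of probe sets. Its difference was -0.24 (SE 0.062, limma adjusted p = 0.770). *Sfn*, encoding the 14-3-3 protein stratifin, differed by -0.32. Of 18 periderm and suprabasal genes, the outermost epithelial layers, all were below 0 (median -0.24) and 10 were lower at that p, with *Cldn6* at -0.36 and the cornified envelope gene *Sprr1a* at -0.30. Without ABH_15A 16 of the 18 were below 0. The highest signals of *Krt16*, *Ivl* and *Krt6b* in any pool were 5.04, 5.06 and 5.35, close to background. The lists overlap. *Cdh1*, *Cldn4*, *Rab25*, *Dsp*, *Prom2* and *Prss8* stand both among the Grainyhead-like targets and in the keratin, adhesion and junction list. *Perp*, *Col17a1*, *Lama3*, *Itgb4*, *Krt5*, *Krt14* and *Pkp1* do so for the p63 targets. *Esrp1*, *Ovol2*, *Zfp750* and *Klf4* are targets that also stand with the other transcription factors. The target counts are in large part counts of the same genes and no separate result.

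Factors of mesenchymal conversion and enamel knot signals were read next. Of 7 EMT transcription factors, which repress epithelial genes, 2 were below 0 and 5 above (median 0.011), none at an unadjusted p under 0.05. Without AZN_MolairesWT1, AZN_MolairesWT2, ABH_15A, ABH_16A or ABH_26A, 4 were below 0 and 3 above, with a median below 0. Leaving out AZN_MolairesMutant1 or AZN_MolairesMutant3 put 1 higher at that p. *Zeb2*, a repressor of E-cadherin, differed by 0.18 (adjusted p = 0.9997) and *Twist2* by -0.090 (adjusted p = 0.9997). Of 19 enamel knot signalling genes, 16 were below 0 (median -0.10) and 3 were lower at that p (6 without AZN_MolairesWT2 and 1 without ABH_25A, AZN_MolairesWT3, AZN_MolairesWT or ABH_15A). *Shh* measured 7.83, 8.72 and 9.21 as its lowest, median and highest in *Rsk2-/Y* pools, against 7.83, 9.47 and 9.96 in WT pools (-0.57, adjusted p = 0.9997), and *Wnt10a* differed by -0.21.

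The skeletal muscle and osteoblast lists had positive medians. Of 22 skeletal muscle genes, 21 were above 0 (median 0.57), 4 at an unadjusted p under 0.05, *Myh3* differing by 0.90 and *Myh7* by 0.64. Without the *Rsk2-/Y* pools ABH_14A and AZN_MolairesMutant3 the muscle median was 0.18 with none at that p, and the 8 factors had a median of -0.25. Leaving out AZN_MolairesMutant3 alone gave a muscle median of 0.37, and the muscle genes at that p numbered 1 without it, 1 without ABH_14A, 2 without ABH_12A or ABH_13A, 14 without AZN_MolairesWT2, 17 without ABH_15A and 18 without ABH_16A. Of 8 osteoblast genes, 7 were above 0 (median 0.19), 2 at that p, the phosphate regulator *Phex* differing by 0.61 and *Alpl*, alkaline phosphatase, by 0.27. Without AZN_MolairesMutant3 the osteoblast median was 0.11 and *Phex* differed by 0.39. The part of these tissues in the values of the 8 factors was not tested. With the ABH and AZN means removed, correlations of the factors with the muscle mean over 16 pools ran from -0.51 for *Grhl3* to -0.20 for *Grhl1*. With the muscle mean as a covariate, 7 of the 8 factors were below 0 (median -0.24, against 56.1% of all probe sets below 0), *Grhl3* at -0.34 and *Tfap2a* at -0.26, and *Sp6* was at 0.074.

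**Figure D4:**
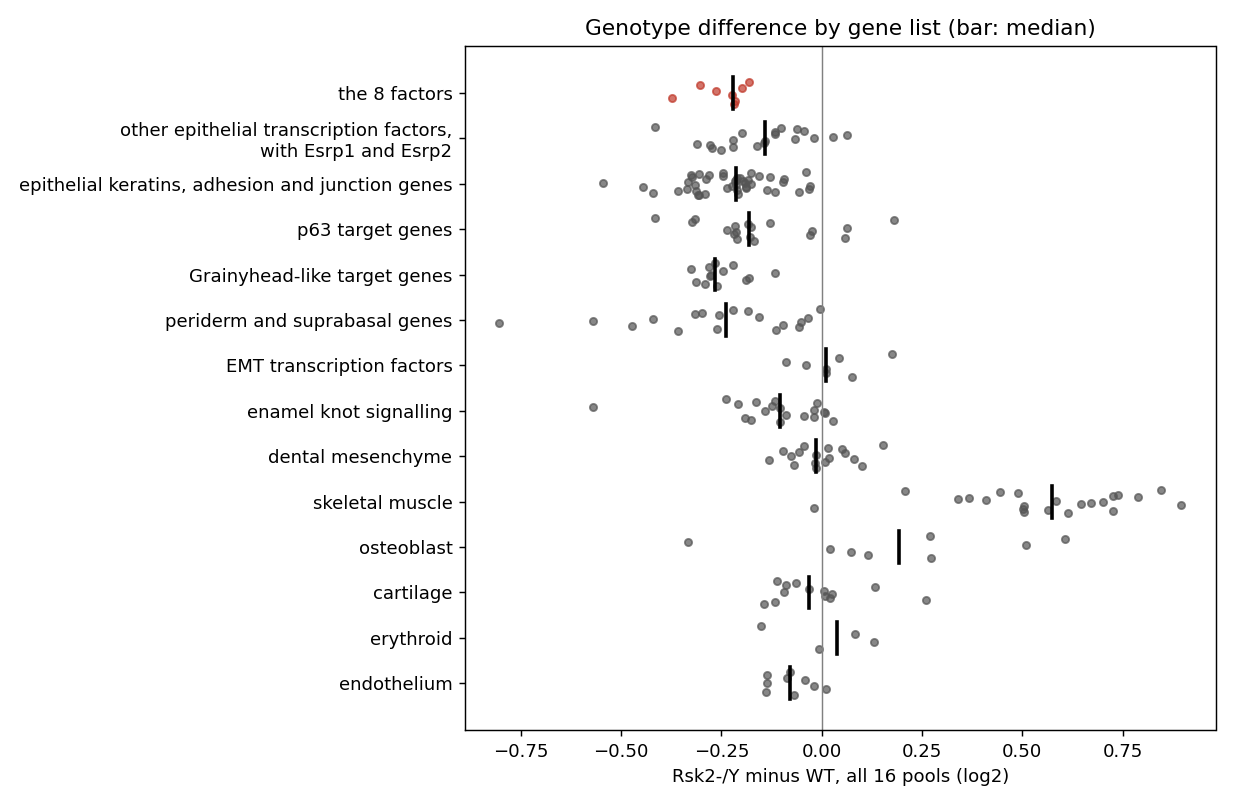
Genotype difference (horizontal axis, *Rsk2-/Y* minus WT, log2, all 16 pools) of each gene in the 8 factors (red) and in 13 other lists (grey, *Esrp1* and *Esrp2* being listed with the other transcription factors), with the median of each list as a bar. The medians of the 8 factors and of the Grainyhead-like targets are -0.22 and -0.27, and that of the skeletal muscle genes is 0.57.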

How the data were processed

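RNA from 16 pools of mandibular molar germs was measured on 16 arrays. The authors deposited log2 signals per probe set, for which the submitters' processing notes name RMA and Affymetrix Expression Console 1.3.1.187, and nothing was normalised further here. Deposited values ran from 2.57 to 13.97, and values near 5 lie close to background. Arrays hold no counts, so the number of arrays limits the precision. Array medians lay between 6.74 and 6.94 and correlations between arrays between 0.976 and 0.997.

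Of 35556 probe sets, 21789 have 1 gene symbol, 1621 several and 12146 none in the platform annotation. Those with 1 symbol and a signal above 5 in at least 1 sample were tested (18834, for 17215 symbols). Pools were grouped by labelled genotype and compared in R 4.3.3 by limma 3.58.1 (two-sided moderated test without covariates). Adjusted p-values are Benjamini-Hochberg values over every probe set tested, and a call needed one under 0.1 with at least a 1.2-fold change. Pools are taken as independent, and p-values set a genotype difference against the spread between these pools, not between single embryos or litters. Exact permutation tests of the difference in means were run in Python 3.11.15 with NumPy 2.4.6. Both steps were tested on simulated data. RefSeq promoters are from GRCm38.p6.

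The members, the 13 other gene lists and the tests were chosen with earlier results of these data known. The rule for named genes took the 8 members, the 2 genes of smallest limma p in each other list, the 3 genes most correlated with each member, and *Rps6ka3*, and 4 marker lists were given by counts. Of the 36 alternatives run, 4 were added after seeing the data: 3 left out pairs of pools, 1 of them with the ABH and AZN block, and 1 joined that block with the epithelial covariate. Genes listed without a probe set of their own symbol were not analysed here.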

Additional observations from a re-analysis of the deposited data

Results flagged for a closer look

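A sample stood far from the other 7 of its genotype, by the gap to its nearest neighbour relative to the range, for 9 of 54 combinations of 27 genes with 2 genotypes. Chance gives about 1 in 20 for independent values. These genes are correlated and share their pools, so whether this is an excess cannot be judged. Of the 8 factors, *Trp63* was low in AZN_MolairesWT2 (9.94, the nearest WT pool being 10.5), *Tfap2a* was low in AZN_MolairesWT2 (8.85, nearest 9.26), *Grhl1* was high in AZN_MolairesWT1 (7.08, nearest 6.76) and *Sp6* was low in AZN_MolairesMutant3 (6.74, nearest 7.87).

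Among other named genes the same pools recur. *Cldn6* was low in AZN_MolairesMutant3 (9.94) among *Rsk2-/Y* pools and in AZN_MolairesWT2 (10.0) among WT pools, *Phex* was high in AZN_MolairesMutant3 (9.84) and *Tmem54* was low in AZN_MolairesWT2 (7.92). *Jag2* was high in AZN_MolairesWT1 (9.33). By the interaction test in limma no gene named differed between ABH and AZN in its genotype difference at an adjusted p under 0.1. *Cd9* differed by -0.51 in ABH, where it was called (adjusted p = 0.0330), and by -0.11 in AZN, with an interaction of 0.40 (unadjusted p = 0.00469, adjusted p = 0.728).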

How the results depend on the processing

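With all 16 pools no probe set and no member was called, and the counts moved under these alternatives. Lower and higher probe sets numbered 9 and 1 without AZN_MolairesWT2 (2 members lower), 3 and 1 in ABH alone, 1 and 0 with the ABH and AZN block, and 80 and 17 with the block and without AZN_MolairesWT2 (3 members lower). Without AZN_MolairesWT2 and AZN_MolairesMutant3 they numbered 1 and 0, and with the block 50 and 9 (3 members lower). Leaving out any single pool gave 0 to 9 lower, 0 to 1 higher and 0 to 2 members lower, and only AZN_MolairesWT2 gave any. *Grhl3*, *Grhl1*, *Tfap2a*, *Ovol1* and *Klf5* were below 0 under all 36 alternatives, *Grhl3* between -0.57 and -0.22 with adjusted p from 0.0238 to 0.99999.

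Signs turned with the epithelial mean as a covariate for *Grhl2* (0.021), *Trp63* (0.13), *Sp6* (0.55) and *Shh* (0.11). With the block added they turned for *Grhl2* (0.00321), *Trp63* (0.082), *Sp6* (0.44) and *Sfn* (0.011), and with the muscle mean for *Sp6* (0.074). No cause was tested. Leaving out AZN_MolairesMutant3 moved *Sp6* to -0.022 and leaving out AZN_MolairesWT2 moved it to -0.38. Whether the numbers in 6 AZN names pair the pools cannot be decided from so few pools. Correlations of deviations were 0.55, 0.18 and 0.057 for pools with the same number. For pools with different numbers they ran from -0.50 to 0.28. With that number as a replicate block no probe set was called, as without it, *Grhl3* was at -0.57 and *Rps6ka3* turned to -0.021, both in these 6 AZN pools with and without the block. Each member has 1 probe set, so the alternative of reading other probe sets could not be run.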

Other observations

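Other tissues are given here by counts, with a limma p under 0.05 before adjustment as the mark. Over all probe sets 1.18% were above and 2.87% below 0 at that p. Of 17 dental mesenchyme genes 9 were below 0 (median -0.014), with 1 higher at that p. Of 13 cartilage genes 7 were below 0 (median -0.033), with 1 higher. Of 9 endothelial genes 8 were below 0 (median -0.080) and of 4 erythroid genes 2 were (median 0.038), with none at that p. Leaving out 1 pool at a time, the medians ran from -0.073 to 0.070 for dental mesenchyme, from -0.064 to 0.0037 for cartilage and from -0.063 to 0.16 for erythroid genes. For endothelial genes they ran from -0.15 to -0.042, and 2 of the 9 were lower at that p without AZN_MolairesMutant.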
